A study of Mus musculus with 11 samples.

Results

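The lung transcript levels of 46 genes of DNA break and damage repair were compared between mice given bleomycin and mice given saline. The genes were taken by symbol from a table of 14700 genes, and all 46 were found, each in 1 row. They fall into 5 roles, with 13 genes of break sensing and signalling, 12 of homologous recombination and crosslink repair, 8 of end joining, 9 of base excision and single-strand break repair, and 4 of nucleotide excision, nucleotide supply and bypass. RNA came from whole lungs of C57BL/6 mice that were 8 weeks old. They received 50 µL of saline (6 libraries) or of bleomycin at 3 U/kg (5 libraries) into the trachea at day 0, and lungs were taken at day 3. The series was deposited for work on PLAC8 in lung fibrosis. No transgene or knockout is named in the labels, and each library is a mixture of all the cells of a lung. The labels abbreviate bleomycin as BLM, which is unrelated to the gene Blm, a member of the set that encodes the Bloom syndrome helicase.

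Bleomycin is a glycopeptide that binds iron and oxygen and breaks one or both strands of DNA. A cell senses a double-strand break through the MRE11-RAD50-NBS1 complex and the kinase ATM, which phosphorylates histone H2AX around the break and gathers MDC1, RNF8, RNF168 and 53BP1 there. The break is then closed either by end joining, which the Ku proteins start at the naked ends, or by homologous recombination, which needs a sister chromatid and so runs in cells that replicate their DNA. Single-strand breaks and damaged bases go through PARP1, XRCC1, DNA polymerase beta and DNA ligase 3. Much of this response acts on proteins already present, through phosphorylation and ubiquitin, and transcript levels do not measure it.

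None of the 46 repair genes passed the threshold in either direction, while 8 of 24 p53 target genes outside repair were called higher in the same libraries. The members and the p53 list were chosen with earlier results of these data known, so the p53 list is not an independent control. By edgeR's quasi-likelihood test with Benjamini-Hochberg adjustment over 14478 genes at 0.05, 0 of the 46 were called, where 10.3% of all genes tested were (4.63% higher and 5.7% lower in bleomycin). At an unadjusted p under 0.05 there were 6 of the 46 (13%), namely Chek1, Lig4, Polk, H2ax, Chek2 and Polb, against 30% of all genes. DESeq2 called 2 of the 46, Chek1 and Lig4, both lower, where it called 19.9% of all genes, and limma on log2(FPKM + 1) called 0. No member had groups that did not overlap, where 8.41% of all genes did (3.99% with bleomycin higher, 4.41% with bleomycin lower). The lowest adjusted p among the 46 was 0.0783, for Chek1.

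The intervals show how large a difference these libraries leave room for. The median log2 fold change (bleomycin over saline) was -0.13 over the 46 genes and -0.04 over all genes tested, and the median size of the log2 fold change without its sign was 0.27 and 0.35. The 95% interval lay within a 2-fold change in both directions for 33 of the 46 (71.7%), against 56.7% of all genes. A 2-fold rise lay outside the interval of 43 genes, the exceptions being Xrcc3, Ddb2 and Rnf8, and a 2-fold fall outside that of 36. The genes for which a 2-fold fall lay inside it were Chek1, Chek2, Brca1, Palb2, Rad54l, Rbbp8, Fanci, Lig4, Xrcc5 and Polq. Of the 46 log2 fold changes 29 were negative (63%, against 53% of all genes tested). With the GC correction 24 were negative, and in each limma fit 19. With libraries scaled to their total counts 9 of the 46 changed sign, all from negative to positive, and the median of all genes moved to 0.14 and that of the members to 0.04, so that the members' median relative to that of all genes was -0.10 under both scalings. Across the alternatives this difference ran from -0.14 without bleomycin 3 to -0.02 without bleomycin 1, and it was -0.03 with the GC correction. Over all genes edgeR called 671 higher and 825 lower, against 894 and 380 with total-count scaling and 1022 and 346 in limma on log2(FPKM + 1), so directions near 0 depend on the scaling.

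**Figure D1:**
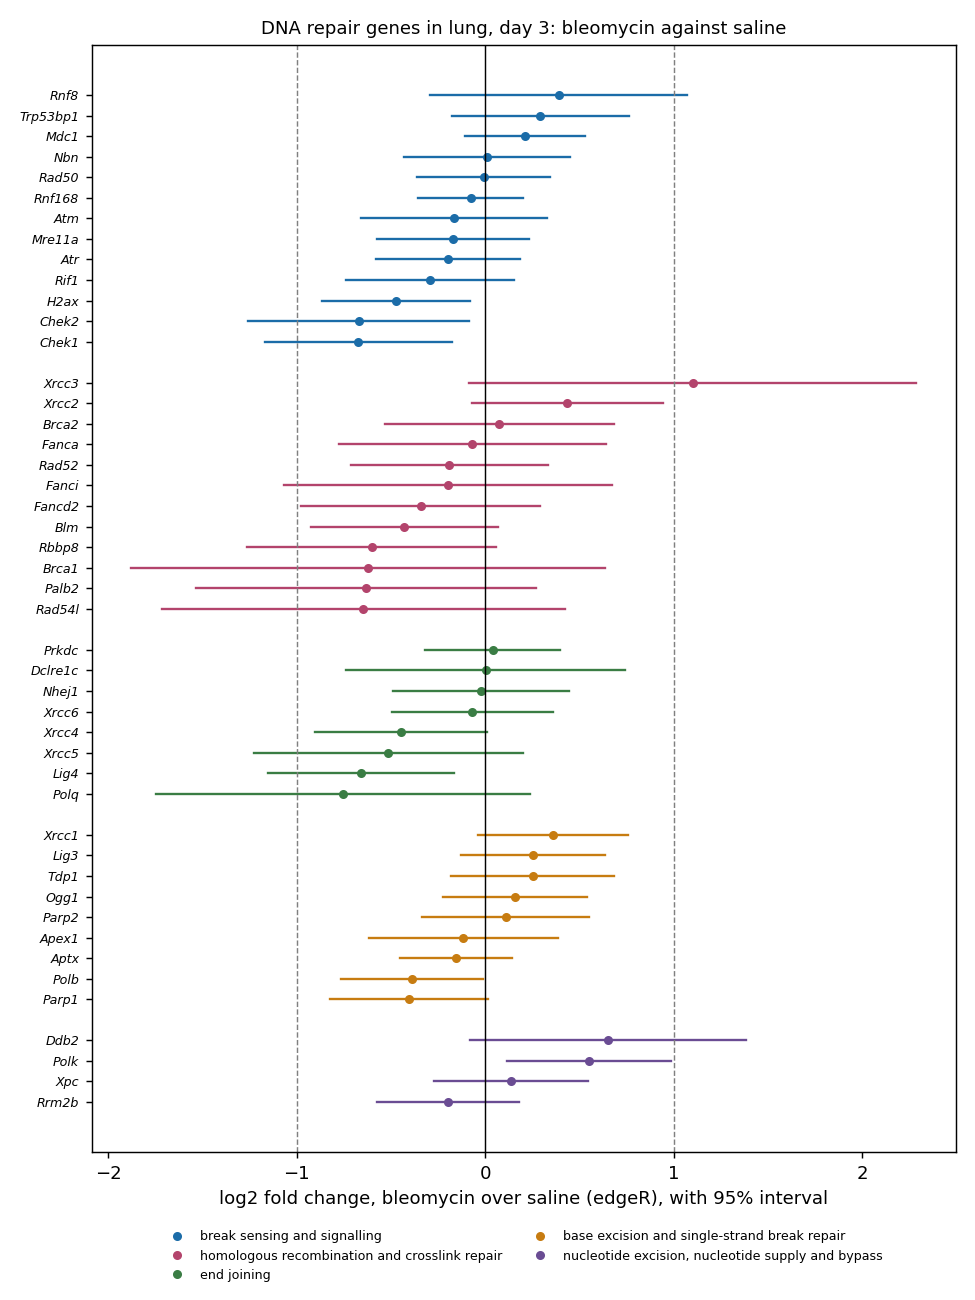
Log2 fold change of bleomycin over saline by edgeR for the 46 repair genes (points) with 95% intervals (lines), grouped by role, with dashed lines at a 2-fold change in either direction. The intervals of 33 genes lie between the dashed lines, and Xrcc3 has the highest value (1.101).

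Other genes that are read beside the members, in lists chosen with earlier results of these data known, moved in these lungs. Levels are given as CPM, which are counts scaled to the TMM library size. Among the 24 p53 targets outside repair, 8 were called higher and 0 lower by edgeR, with a median log2 fold change of 0.61. Leaving out 1 library at a time gave 5 to 11 of them, leaving out saline 1 and 4 gave 4, and leaving out saline 2 and 3 gave 12. Cdkn1a, the gene of the cyclin-dependent kinase inhibitor p21, went from 107 ± 81.4 CPM in the 6 saline libraries to 545 ± 256 CPM in the 5 bleomycin libraries (mean ± SD). Sesn2, a stress-induced regulator of metabolism, went from 18.5 ± 7.25 to 54.0 ± 12.4 CPM. Of 20 mitosis markers 3 were called lower (Mki67, Cenpf and Bub1) and 0 higher, with all 20 log2 fold changes negative and a median of -1.01. With total-count scaling 1 was called lower, by DESeq2 10, and without 1 library at a time 1 to 5. Of 24 replication markers 3 were called lower (Rrm2, Pola1 and Pcna), with a median of -0.40, and 0 were called with total-count scaling, in either limma fit, or without saline 2, 3, 4 or 5 or bleomycin 2, 3, 4 or 5 in turn. Markers of T cells (9 of 14), natural killer cells (11 of 12), dendritic cells (6 of 10) and club cells (3 of 8) were also called lower. Of 12 macrophage and monocyte markers 1 was called lower (8.33%), near the 5.7% of all genes. Their median log2 fold change was -1.43, with 2 positive, and the median was -0.11 without saline 2 and 3. Markers called higher were 4 of 10 alveolar type 1, 3 of 10 endothelial, 2 of 10 alveolar type 2 and 2 of 10 fibroblast markers. The fibroblast list as a whole did not rise, with 6 of 10 log2 fold changes negative and a median of -0.25. Its count called higher was 0 without saline 1, 3 or 4, without bleomycin 2, 4 or 5, and without saline 1 and 4 together. The club cell count was 0 without saline 1 and 4 together and without bleomycin 3 or 4. The endothelial count was 0 without bleomycin 2, 4 or 5, without saline 1 and 4 together and with the GC correction, and 1 without saline 1, 3 or 4. Their part in the levels of the repair genes was not tested, and in whole lung fewer cells of a type cannot be told apart from less RNA per cell. The lung markers Sftpc, Sftpb, Ager, Scgb1a1 and Pecam1 were high in every library, at 281 CPM or more. Col1a1 was also chosen for this check, and its level is not given here. Scgb1a1 alone took from 1.77% (bleomycin 5) to 12.14% (saline 4) of the counts of a library. Total counts were 13226339 to 19009284 per library, and the repair genes together took 0.0639% to 0.0889% of them.

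**Figure D2:**
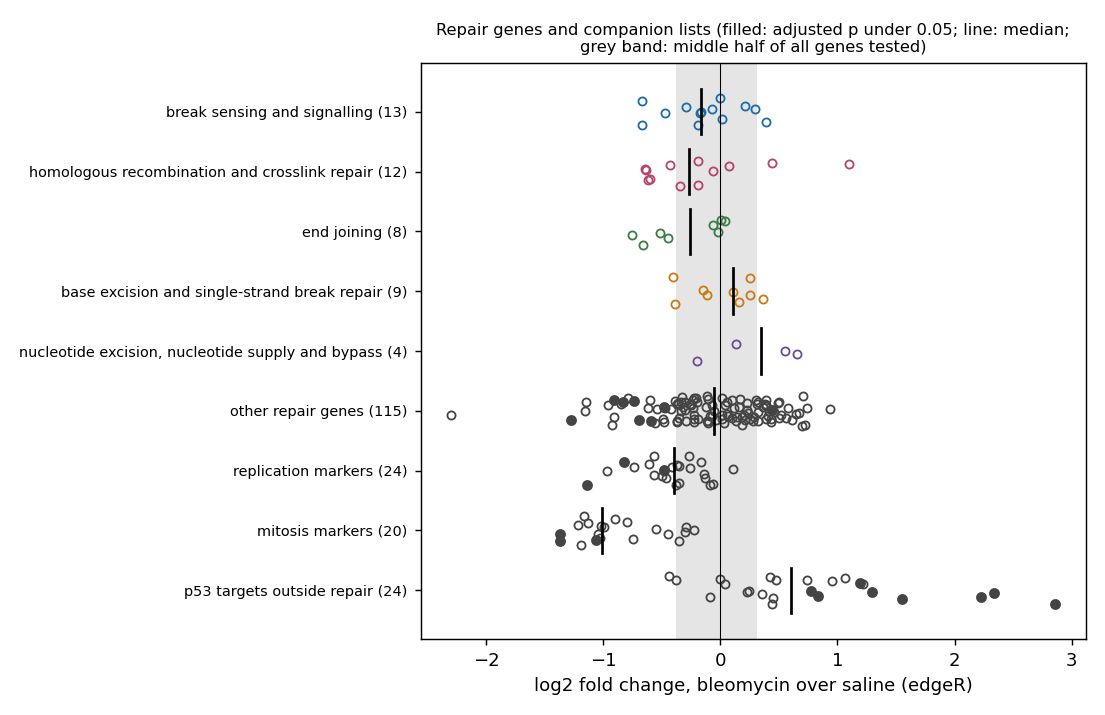
Log2 fold change of bleomycin over saline by edgeR for each gene of the 5 repair roles, of the other repair genes and of 3 companion lists, with the list's median as a black line and the interquartile range of all genes tested as a grey band. No repair gene among the 46 is filled (adjusted p under 0.05), whereas 8 of the 24 p53 targets are, and the mitosis markers lie to the left of 0.

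The summed level of the repair genes overlapped between the groups. The 46 together held 729 to 856 CPM in saline (median 808) and 733 to 798 CPM in bleomycin (median 765), so on this scale the bleomycin range lay inside the saline range. As a share of total counts they took 0.0639% to 0.0883% in saline and 0.0710% to 0.0889% in bleomycin, where bleomycin 5 lay above every saline library. Per length, 26 of the 46 had a mean deposited FPKM of 1 or more, and the median over the 46 was 1.28, against 2.79 over the table. The highest mean FPKM were those of Xrcc5 (12.9), which encodes the Ku80 subunit that binds broken ends, and H2ax (11.3), and the lowest those of Polq (0.058), a polymerase of microhomology-mediated joining, and Fanci (0.0531), a partner of FANCD2 at DNA crosslinks. For 45 of the 46, the gene length implied by FPKM and count came within 2% of the exons summed over every GENCODE M21 transcript. It was not that of the merged exons (median ratio 2.16), so FPKM is low for genes with many transcripts. Per kilobase of merged exons Xrcc5 (13.3 CPM per kilobase) and H2ax (11.3) were again the highest and Polq (0.224) and Fanci (0.136) the lowest, and 8 of the 10 highest genes were shared by both scales. Xrcc6, which encodes the Ku70 partner of Ku80, stood at 4.49 CPM per kilobase of merged exons and at 1.67 FPKM.

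The promoters of 4 members are shown because Chek1, Chek2 and Polk are among the 6 genes at an unadjusted p under 0.05 and Xrcc3 had the largest change. They were chosen after these values were seen. RefSeq windows of build GRCm38.p6, from 250 bases before to 50 after the annotated start, were found for 34 of the 46 and not for Rad50, Nbn, H2ax, Rif1, Xrcc2, Rbbp8, Fancd2, Prkdc, Polb, Ddb2, Xpc and Rrm2b. Capitals mark a whole p53 half-site or the whole E2F motif searched below. The windows are those of the checkpoint kinase genes Chek1 (chr9:36726609-36726908, minus strand) and Chek2 (chr5:110839733-110840032, plus strand), of the bypass polymerase gene Polk at the 1 of its 2 starts that lies at chr13:96519138-96519437 (minus strand), and of Xrcc3, a gene of homologous recombination (chr12:111813830-111814129, minus strand).
Chek1: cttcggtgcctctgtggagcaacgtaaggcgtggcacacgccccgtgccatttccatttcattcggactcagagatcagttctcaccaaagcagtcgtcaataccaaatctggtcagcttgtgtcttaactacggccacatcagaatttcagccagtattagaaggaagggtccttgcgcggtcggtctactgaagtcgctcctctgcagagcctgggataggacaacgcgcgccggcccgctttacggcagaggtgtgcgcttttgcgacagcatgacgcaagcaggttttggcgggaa
Chek2: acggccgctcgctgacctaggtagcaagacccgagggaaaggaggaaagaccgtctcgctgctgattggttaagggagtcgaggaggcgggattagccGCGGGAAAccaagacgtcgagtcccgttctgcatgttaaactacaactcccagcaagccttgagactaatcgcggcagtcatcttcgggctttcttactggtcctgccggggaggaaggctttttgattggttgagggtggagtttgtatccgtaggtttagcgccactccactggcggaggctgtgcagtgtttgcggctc
Polk: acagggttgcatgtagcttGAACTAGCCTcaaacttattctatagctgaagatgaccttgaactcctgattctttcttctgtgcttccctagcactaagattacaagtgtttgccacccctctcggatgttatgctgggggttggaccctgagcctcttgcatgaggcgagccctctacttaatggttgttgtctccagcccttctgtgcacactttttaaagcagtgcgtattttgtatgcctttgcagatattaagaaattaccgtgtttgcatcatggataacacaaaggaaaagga
Xrcc3: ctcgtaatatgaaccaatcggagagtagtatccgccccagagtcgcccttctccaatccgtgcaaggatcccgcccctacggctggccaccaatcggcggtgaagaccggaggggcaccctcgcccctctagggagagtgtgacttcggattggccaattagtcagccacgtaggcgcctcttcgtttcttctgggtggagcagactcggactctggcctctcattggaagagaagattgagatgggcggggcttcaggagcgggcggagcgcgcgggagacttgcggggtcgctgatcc
The E2F motif TTTCCCGC, on either strand, was in the windows of Chek2, Mdc1, Brca2 and Xrcc6, 4 of the 34 members (11.8%), against 1.24% of 27025 genes, and the related TTTGGCGC was in 0 of the 34 and in 0.585% of genes. The p53 half-site consensus was in 2 of the 34, Fanca and Polk (5.88%), against 9.55% of genes. In Polk it lay 231 bases before this start, and the window at the other start held none. The CHR motif TTTGAA was searched on either strand too, and was in 3 of the 34, Rnf8, Polq and Tdp1 (8.82%), against 20.2% of genes. These 4 E2F-motif genes had log2 fold changes of -0.67, 0.21, 0.07 and -0.07 in the same order, and none passed. The Chek1 window ends on gcgggaa, the reverse complement of TTTCCCGC short of its last base, which lies past the window's end, so this was not counted as a match. A match describes the letters in the window and does not show that a factor binds there.

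Among the break sensing genes, Chek1, Chek2 and H2ax had the largest negative values. The genes of the MRE11-RAD50-NBS1 complex did not stand apart. Chek1 encodes the kinase that ATR activates at stalled replication forks. It had 2.86, 3.90 and 5.01 CPM as the lowest, median and highest of the saline libraries, and 2.34, 2.55, 1.80, 2.59 and 2.97 CPM in bleomycin 1 to 5. The bleomycin libraries were at the low end, and only the highest of them, bleomycin 5, lay above the lowest saline library. Its log2 fold change was -0.67 ± 0.229 (SE; edgeR adjusted p = 0.0783), with a 95% interval from -1.17 to -0.17. It was called by DESeq2 (adjusted p = 0.0268), and was smaller with the GC correction (-0.40, edgeR adjusted p = 0.306). Chek2, the kinase downstream of ATM, stood at 7.20, 12.2 and 15.2 CPM (lowest, median, highest) in saline and at 3.54, 7.58, 8.96, 10.2 and 6.82 CPM in bleomycin 1 to 5. Bleomycin 1 was the lowest library and the groups overlapped (log2 fold change -0.67 ± 0.270, edgeR adjusted p = 0.122).

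H2ax, the histone variant gene whose protein is phosphorylated around breaks, stood at 13.01, 18.4 and 21.3 CPM (lowest, median, highest) in saline and at 11.99, 10.1, 16.5, 12.5 and 13.5 CPM in bleomycin 1 to 5. Bleomycin 3 and 5 overlapped with the lower saline libraries. Its log2 fold change was -0.47 ± 0.182 (edgeR adjusted p = 0.11). With a correction of each library for its trend on GC content it was -0.91 and passed (edgeR adjusted p = 0.00485, where 6.65% of all genes were called), so the call on H2ax turns on that correction. For the sensor complex, Rad50 and Nbn had log2 fold changes of -0.01 ± 0.162 and 0.01 ± 0.203, and Mre11a of -0.17 ± 0.185. Rad50 lay between 22.9 and 26.7 CPM in all 6 saline libraries and had the lowest coefficient of variation of the 46 there. In bleomycin 1 it stood at 15.3 CPM, against 25.8 to 28.7 CPM in bleomycin 2 to 5. Atm, the kinase gene that this complex activates, stood at 12.8 ± 3.79 CPM in saline and 11.4 ± 2.13 CPM in bleomycin (SD). Atr, the kinase gene for stalled forks, stood at 25.8 ± 6.71 and 22.6 ± 1.03 CPM. Neither passed. The adaptor genes Mdc1 and Trp53bp1 had log2 fold changes of 0.21 and 0.29, the ubiquitin ligase gene Rnf168 of -0.08, and Rif1, which limits end resection, of -0.29, and none passed. Rnf8, the ligase gene upstream of Rnf168, had 21.1 CPM in bleomycin 1, and 5.98 to 10.4 CPM in the other bleomycin libraries, a range much like the 5.87 to 10.1 CPM of saline.

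The 3 largest standard errors of the 46 belonged to the recombination genes Brca1, Xrcc3 and Rad54l. Of the 12, 9 had negative log2 fold changes, and the median was -0.27. Xrcc3 had the largest change of the 46, with 1.40, 6.41 and 11.7 CPM (lowest, median, highest) in saline and 22.5, 12.3, 11.1, 12 and 11.2 CPM in bleomycin 1 to 5. Saline 1, 4 and 5 held 1.70, 1.40 and 2.60 CPM, whereas saline 2, 3 and 6 held 10.2, 11.7 and 11.0 CPM, close to bleomycin 2 to 5. The log2 fold change was 1.101 ± 0.546 (edgeR adjusted p = 0.196), with 1.72 without saline 2 and 3 (edgeR adjusted p = 0.0516, the lowest over the alternatives) and 0.65 without saline 1 and 4. Rbbp8, which encodes the resection factor CtIP, had 30.5, 34.1 and 71.7 CPM (lowest, median, highest) in saline and 48.2, 21.7, 25.2, 22.0 and 29.8 CPM in bleomycin 1 to 5. Saline 2 and 3 were the highest libraries, with 66.4 and 71.7 CPM, and bleomycin 1 came next (log2 fold change -0.60 ± 0.304, edgeR adjusted p = 0.204). Without saline 2 and 3 it was -0.14 (edgeR adjusted p = 0.685), so most of the difference rests on those 2 libraries. The same saline 2 and 3 had the highest summed level of the 10 dendritic cell markers, at 8004 and 6672 CPM against 203 to 2851 CPM elsewhere, and the part of those cells in the level of Rbbp8 was not tested.

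Brca1, whose protein steers breaks to recombination, was nearly missing from 1 library. It had 3.62 to 7.95 CPM in saline and 0.0754, 2.67, 4.45, 4.43 and 5.83 CPM in bleomycin 1 to 5, and the value of bleomycin 1 is 1 read. The log2 fold change was -0.62 ± 0.579, with a 95% interval from -1.88 to 0.64. Rad54l, a motor protein gene of strand invasion, was likewise lowest in bleomycin 1, at 0.377 CPM against 1.62 to 2.86 CPM in bleomycin 2 to 5. Brca1, Rad54l and Palb2, which encodes the partner of BRCA2, had log2 fold changes between -0.65 and -0.62. Brca2 itself stood at 4.71 ± 1.70 and 4.96 ± 0.93 CPM (log2 fold change 0.07 ± 0.279). The Fanconi genes Fanca, Fancd2 and Fanci had -0.07, -0.34 and -0.20, the Bloom helicase gene Blm -0.43, Rad52 -0.19 and Xrcc2, which also acts in recombination, 0.44, and none passed. Bleomycin 1 also had the lowest summed level of the 20 mitosis markers, at 66.0 CPM against 103 to 397 CPM in the other libraries, and the highest sum of the 24 p53 targets, at 3226 CPM. Whether these go with the low recombination genes was not tested.

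**Figure D3:**
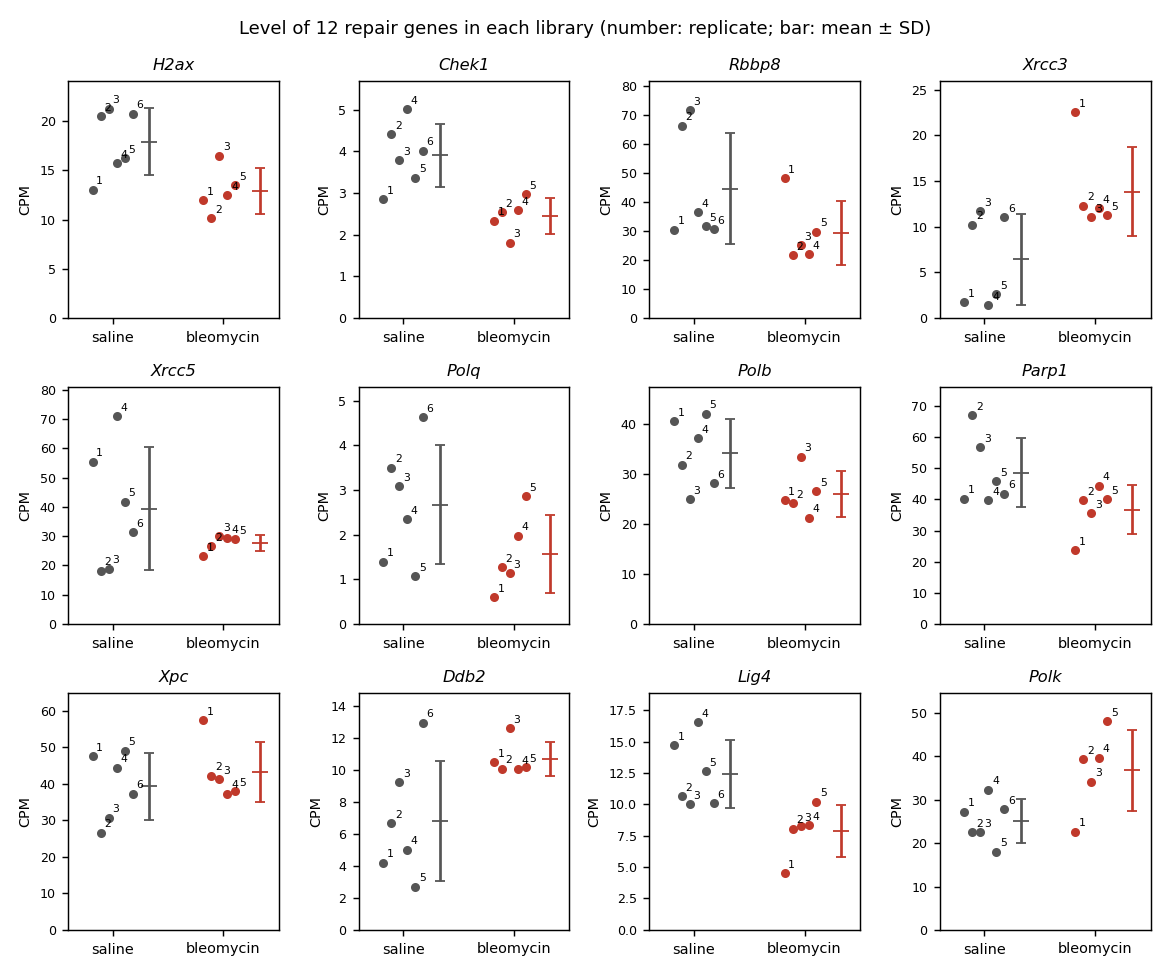
CPM of 12 repair genes in each library, with saline in grey and bleomycin in red, numbered by replicate, beside the mean ± SD of the group. Xrcc3 separates saline 1, 4 and 5 (at most 2.60 CPM) from all other libraries (at least 10.2 CPM), and Xrcc5 is highest in saline 4 and 1.

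Among the end joining genes, Lig4 came closest to the threshold. Xrcc5, Dclre1c and Polq varied most between saline libraries, with coefficients of variation of 53.2%, 53.1% and 50.1%. Lig4, the ligase gene of this pathway, had 10.0, 11.6 and 16.6 CPM (lowest, median, highest) in saline and 4.52, 8.06, 8.24, 8.32 and 10.2 CPM in bleomycin 1 to 5. The groups met only where bleomycin 5 lay just above the lowest saline libraries. The log2 fold change was -0.66 ± 0.226 (edgeR adjusted p = 0.0808), and Lig4 was called by DESeq2 (adjusted p = 0.0343) and by edgeR without saline 2 and 3 (adjusted p = 0.0471). Its partner Xrcc4 had a log2 fold change of -0.45 ± 0.210 (edgeR adjusted p = 0.175).

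Xrcc5 had 18.2, 36.6 and 71.0 CPM (lowest, median, highest) in saline and 23.2, 26.5, 30.0, 29.4 and 29.0 CPM in bleomycin 1 to 5. Saline 1 and 4 were the 2 highest libraries, with 55.4 and 71.0 CPM, and saline 2 and 3 the 2 lowest. The log2 fold change was -0.51 ± 0.327 (edgeR adjusted p = 0.307). Without saline 2 and 3 it was -0.85 and passed (edgeR adjusted p = 0.0235, where 19.2% of all genes were called), and without saline 1 and 4 it was 0.04, so its direction rests on those 2 libraries. The 8 club cell markers were also highest in saline 1 and 4, with sums of 156400 and 172900 CPM against 19100 to 87220 CPM elsewhere, and their part in the level of Xrcc5 was not tested. Xrcc6 was also highest among the saline libraries in saline 1 and 4, at 24.4 and 23.5 CPM, but over a narrower range (16.9 to 24.4 CPM), with a log2 fold change of -0.07 ± 0.196. Polq had 1.07, 2.72 and 4.63 CPM (lowest, median, highest) in saline and 0.603, 1.27, 1.14, 1.98 and 2.86 CPM in bleomycin 1 to 5. Bleomycin 1 was lowest and saline 6 highest, and the groups overlapped (log2 fold change -0.75 ± 0.457, edgeR adjusted p = 0.282). The other 3 end joining genes, Prkdc, which encodes the DNA-dependent protein kinase, Nhej1 and the nuclease gene Dclre1c, had log2 fold changes of 0.04, -0.02 and 0.00.

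The genes of base excision and single-strand break repair gave the tightest picture: all 9 had intervals within a 2-fold change in both directions, and the median log2 fold change was 0.11. Polb, the gap-filling polymerase gene, had 24.99, 34.6 and 42.1 CPM (lowest, median, highest) in saline and 24.8, 24.2, 33.5, 21.3 and 26.6 CPM in bleomycin 1 to 5. Bleomycin 1, 2 and 4 lay below every saline library and bleomycin 3 and 5 inside the saline range (log2 fold change -0.39 ± 0.173, edgeR adjusted p = 0.156, and -0.15 with the GC correction). Parp1, the strand break sensor gene, had 39.7, 43.8 and 67.0 CPM (lowest, median, highest) in saline and 23.7, 39.8, 35.7, 44.4 and 40.1 CPM in bleomycin 1 to 5. Saline 2 and 3 were highest and bleomycin 1 lowest, and the groups overlapped (log2 fold change -0.40 ± 0.193, edgeR adjusted p = 0.183, and -0.19 without saline 2 and 3). Xrcc1, the scaffold gene of this pathway, leaned the other way, at 26.0 ± 6.02 and 33.4 ± 5.16 CPM (log2 fold change 0.36 ± 0.183, edgeR adjusted p = 0.206). Lig3, Tdp1 and Ogg1, which encode a ligase, an enzyme that frees trapped topoisomerase 1, and a glycosylase for oxidised guanine, had 0.25, 0.25 and 0.16, and Parp2 0.11. Aptx and the endonuclease gene Apex1 had -0.15 and -0.11. Exons of Pip4p1 on the other strand overlap 61.7% of the exonic bases of Apex1, and those of Rffl overlap 25.1% of Lig3, so their levels are uncertain if reads were counted without strand.

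The last role holds Ddb2, Xpc and Rrm2b, which are p53 targets in human cells, and Polk. Ddb2, which encodes a sensor of ultraviolet damage, had 2.68, 5.83 and 12.9 CPM (lowest, median, highest) in saline and 10.5, 10.1, 12.6, 10.0 and 10.2 CPM in bleomycin 1 to 5. Every bleomycin library lay above 5 of the 6 saline libraries, and saline 6 lay above them all. The log2 fold change was 0.65 ± 0.337 (edgeR adjusted p = 0.213), and exons of Acp2 on the other strand overlap 23.8% of its exonic bases. Xpc, which recognises distorted DNA, had 26.7, 40.9 and 49.2 CPM (lowest, median, highest) in saline and 57.5, 42.3, 41.2, 37.3 and 38.1 CPM in bleomycin 1 to 5. Bleomycin 1 was the highest library and the others lay within the saline range (log2 fold change 0.14 ± 0.187, edgeR adjusted p = 0.649). Rrm2b, the ribonucleotide reductase subunit that supplies nucleotides for repair, had a log2 fold change of -0.20 ± 0.172.

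Polk had 18.1, 24.9 and 32.3 CPM (lowest, median, highest) in saline and 22.7, 39.4, 34.1, 39.7 and 48.2 CPM in bleomycin 1 to 5. Bleomycin 2 to 5 lay above every saline library, and bleomycin 1 lay inside the saline range. The log2 fold change was 0.55 ± 0.201 (edgeR adjusted p = 0.0941), with a 95% interval from 0.12 to 0.99. Polk was called higher without bleomycin 1 (log2 fold change 0.68, edgeR adjusted p = 0.034, where 10.5% of all genes were called) and with the GC correction (0.83, edgeR adjusted p = 0.0336).

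The highest and lowest values of the members were not spread evenly over the libraries. Bleomycin 1 was the lowest of the 11 libraries for 15 of the 46 genes (32.6%), against 16.9% of all genes tested, and saline 3 was the highest for 12 (26.1%), against 7.6%. Saline 2 and 3 were the 2 highest libraries for 9 members, Parp1, Dclre1c, Rad54l, Blm, Mre11a, Fanca, Atm, Fanci and Rbbp8 (19.6%, against 15.2% of all genes). Saline 1 and 4 were the 2 highest for 6, Rrm2b, Xrcc5, Chek2, Atr, Rif1 and Lig4 (13%, against 11.2%), and the 2 lowest for Xrcc3, Xrcc1 and Mdc1 (6.52%, against 9.61%). Saline 2 and 3 were the 2 lowest for Xrcc5, Xpc and Ogg1 (6.52%, against 12.6%). The coefficient of variation was larger in saline than in bleomycin for 30 of the 46 (65.2%), against 68.4% of all genes, with medians of 23.5% and 19.5% over the members.

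**Figure D4:**
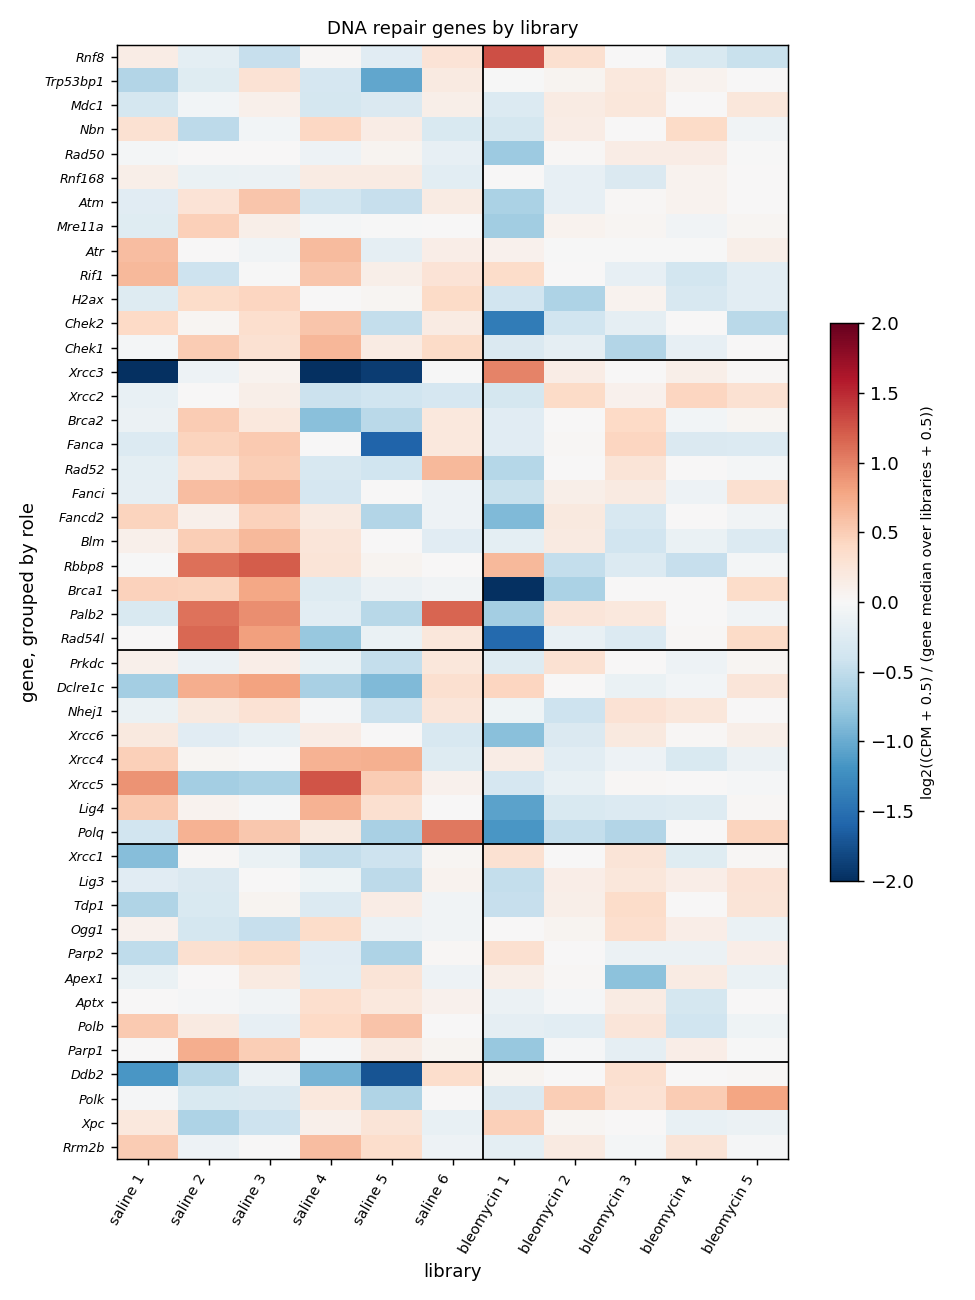
Level of each of the 46 repair genes in each of the 11 libraries, as log2 of (CPM + 0.5) over the gene's median + 0.5, with red above and blue below the median and colours capped at 2 in either direction. Rows are grouped by role, and the dark blue cells mark Xrcc3 in saline 1, 4 and 5, Ddb2 and Fanca in saline 5, and Brca1, Rad54l and Chek2 in bleomycin 1.

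Of 118 further repair genes listed beside the members, 115 were tested, and 1 was called higher and 7 lower (6.96%, against 10.3% of all genes), with a median log2 fold change of -0.06. At an edgeR unadjusted p under 0.05 there were 42 of the 115 (36.5%), against 30% of all genes and 13% of the 46 members. The counts called and their direction depend on the setting (in brackets, the share of all genes called in that setting). Total-count scaling gave 3 higher and 2 lower (8.8%), limma on log2(FPKM + 1) 4 and 3 (9.45%), and DESeq2 10 and 14 (19.9%). The GC correction gave 0 and 2 (6.65%). Leaving out saline 2 and 3 gave 15 and 10 (19.2%), and leaving out saline 1 and 4 gave 0 and 1 (6.04%). Leaving out 1 library at a time gave 0 to 3 higher and 1 to 10 lower, with 0 and 1 without bleomycin 2, 4 or 5. Those lower included Rad51b, a gene of homologous recombination (5.32 ± 2.03 and 2.19 ± 0.687 CPM, log2 fold change -1.28, edgeR adjusted p = 0.0291), and Rpa3, a subunit gene of the single-strand binding protein RPA (23.1 ± 6.18 and 12.3 ± 1.12 CPM, -0.91, edgeR adjusted p = 0.0183). Ube2t, the ubiquitin-conjugating enzyme gene of the Fanconi pathway, and Wrn, the Werner helicase gene, had -0.83 and -0.74 (edgeR adjusted p = 0.0355 and 0.0183). Fance, a Fanconi core complex gene, was the 1 called higher (15.5 ± 0.909 and 20.9 ± 1.41 CPM, 0.44, edgeR adjusted p = 0.0377). By role, 3 of 20 further checkpoint genes and 3 of 37 further recombination genes were called lower, as was 1 of 24 of base excision and mismatch repair, and 0 of 12 of end joining and 0 of 22 of nucleotide excision and bypass were called. With total-count scaling 1 checkpoint and 1 recombination gene were called lower, and 1 end joining gene higher. Without saline 2 and 3, 4 end joining genes were called higher.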

How the data were processed

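Lung RNA of 11 samples was captured by its poly(A) tail, made into dUTP libraries and sequenced in pairs, per the labels' protocols. The authors deposited 1 table that holds, for each gene, raw counts and FPKM values of every sample. FastQC, HTSeq 2.0.2, HISAT2 2.2.1 and the build GRCm39 appear in the submitters' processing notes. The sources used here give neither the gene models nor the strand option of the counting. Libraries were grouped by title into 6 saline and 5 bleomycin. Whether each came from its own animal is not in the labels, and p-values then rest only on the spread between samples, which may be technical. No 2 libraries agreed within sampling noise: the closest of 55 pairs, saline 1 and 4, gave a chi-square of 17.5 times its degrees of freedom. Saline 2 and 3 came next (25.55), and the pairs of saline 1 or 4 with saline 2 or 3 were the most distant (385.3 to 462.4). The labels do not tell whether a close pair shares an animal or a batch, so the 6 saline libraries may not be independent. Each close pair was also left out together as an alternative.

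Total counts were 13226339 to 19009284 per library. The 46 members, their roles and all lists were chosen with earlier results of these data known. Counts were filtered by filterByExpr (minimum count of 10), scaled by TMM and tested by the two-sided edgeR 4.0.16 quasi-likelihood test in R 4.3.3, adjusted over 14478 genes. The SE is the absolute log2 fold change over the square root of F, and intervals use the test's degrees of freedom. The method was tested on simulated data. Named genes were those past the threshold and, per role, the highest FPKM and the largest change; other members named were chosen after their values were seen. Alternatives were DESeq2 1.42.0, limma 3.58.1 on log2(FPKM + 1) or log2(FPKM + 0.1), median-ratio factors, total-count scaling, no filter, FPKM of 1 or more in 5 libraries, a threshold of 0.01, a replicate block, a GC correction (GENCODE M21 transcripts, 99.9% of genes), and libraries left out. Exon overlap and exon lengths come from GENCODE M21 on GRCm38, another build than the GRCm39 of the submitters' notes. The lengths implied by the deposited FPKM nevertheless matched its summed transcripts within 2% for 45 of the 46 members.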

Additional observations from a re-analysis of the deposited data

Results flagged for a closer look

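Within the groups, 6 values of the 46 genes stood far from the other libraries of their group, by a gap test that chance meets in about 5% of groups, over 92 groups checked. Of these, 5 were in bleomycin 1. It was low for Mre11a (9.50 CPM, the next library at 14.9 CPM), Rad50 (15.3 CPM, next 25.8 CPM) and Lig3 (11.2 CPM, next 17.2 CPM). It was high for Xrcc3 (22.5 CPM, next 12.3 CPM) and Xpc (57.5 CPM, next 42.3 CPM). The other was Ddb2 in bleomycin 3, at 12.6 CPM where the next library held 10.5 CPM.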

How the results depend on the processing

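Of the 46 repair genes, 0 were called higher or lower with median-ratio factors, total-count scaling, no filter, the stricter filter, both limma fits, a threshold of 0.01 and without saline 1 and 4. With the GC correction 1 was called higher (Polk) and 1 lower (H2ax). DESeq2 called 2 lower (Chek1 and Lig4), as did edgeR without saline 2 and 3 (Xrcc5 and Lig4). Leaving out 1 library at a time gave 0 to 1 higher (Polk, without bleomycin 1) and 0 lower. The count of all genes called, 1496, was 2923 by DESeq2, 2778 without saline 2 and 3, 876 without saline 1 and 4, 962 with the GC correction, 247 at the threshold of 0.01, and 557 to 2118 when 1 library was left out, where leaving out saline 1 or any of bleomycin 2, 3, 4 and 5 lowered it by over 1.5 times. The cause of these moves was not tested, apart from the threshold of 0.01, which is stricter by construction. With the replicate number as a block 0 members, 1 of the 24 p53 targets and 513 genes were called. Same-numbered libraries of the groups did not deviate together (correlations of -0.189 to 0.0139), so the numbers are not read as a pairing. Of 218 alternative values of the 10 genes named by rule, 2 changed sign: Xrcc5 without saline 1 and 4 (0.0356) and Xpc without saline 2 and 3 (-0.0469). The rule includes the largest change of each role, which makes a change of sign less likely. Other members changed sign more often, such as Nhej1 in 10, Rad50 in 9 and Nbn in 7 of 22 alternatives. The stricter filter kept 27 of the 46. By role, the median of break sensing genes was positive with total-count scaling, on log2(FPKM + 1), without saline 1 and 4 and with the GC correction (0.11), that of end joining genes was positive on log2(FPKM + 1) (0.01), and that of base excision genes was negative with the GC correction (-0.05) and without saline 1 and 4 (-0.01). The lowest counts were those of Fanci, with 5 to 22 reads per library, and of Brca1, with 1 read in bleomycin 1; the SE did not follow depth alone, at 0.400 for Fanci and 0.546 for Xrcc3, which had 22 to 299 reads.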
